A study of Mus musculus with 10 samples.

Results

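The p53 targets and cell cycle brakes are a list of 40 mouse genes, taken by gene symbol: the p53 gene and its Mdm regulators, the CDK inhibitors, the D and G cyclins, the Gadd45, sestrin and Btg/Tob families, death genes downstream of p53, and the retinoblastoma family. On the array 38 of the 40 had a probe set of their own, and 37 were bright enough to be tested, out of 7761 tested genes in all. Trp53 and Bax are not analysed here, and Tnfrsf10b, a death receptor, was too dim to test, with group means from 62.0 in K165A to 126 in delta. Tested members had a median mean signal of 804, against 591 for all tested genes.

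Messenger RNA was measured on 10 Affymetrix arrays in mouse embryonic fibroblasts (MEFs), connective tissue cells cultured from embryos. G9a, the product of Ehmt2, methylates histone H3 and other proteins. All cells of 4 groups lacked their own G9a and carried a vector: an empty one in delta, and in the others a FLAG-tagged G9a that was wild type (WT), carried the substitution K165A, or carried H1093K, named as a catalytic mutant. Another group is titled only G9a-deleted, and the vector it carries, if any, is not given. The title names a histone-like methylation site in G9a and the assembly of protein complexes. Each group had 2 arrays, and nothing says that they came from separate cultures, so the p-values describe the scatter of these arrays alone, and that scatter may be technical. The promoter of the vectors, the number of clones and the growth state of the cultures are not given in the sources used here.

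p53 is a transcription factor that is stabilised by DNA damage and other stress and switches on genes that halt the cell cycle, repair DNA or start cell death. Its target Mdm2 marks it for destruction, which closes a feedback loop. The arrest runs largely through CDK inhibitors, which keep cyclin-dependent kinases from inactivating the retinoblastoma proteins. Embryonic fibroblasts are the cells in which much of this circuit was worked out, because they stop dividing in culture through p53 and the Cdkn2a locus.

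Ehmt2 was highest where the label says that it was deleted. Its brighter probe set read 473 and 415 in delta, 676 and 620 in WT, 704 and 725 in K165A, 461 and 494 in H1093K, and 1678 and 1750 on the arrays labelled deleted. Where this probe set lies relative to the deletion is not given, so it cannot check whether the gene was lost. H1093K did not pass against delta in it (0.10, limma adjusted p = 0.735). A second, dim probe set read 7.13 and 36.5 in delta, 40.9 and 106 in WT, and 90.4 and 178 in K165A. It read 116 and 55.7 in H1093K, both above delta, and 162 and 247 on the arrays labelled deleted. All 15 fibroblast markers were bright enough to test, and Col1a1 had means of 7483 to 8634 in the 5 groups. The list was not steady between delta and WT. In WT 5 of the 15 were higher than in delta and 2 lower (limma adjusted p under 0.05), 46.7%, against 13.5% of genes. Col3a1 had means of 2480 in delta and 4596 in WT, and Thy1 of 1870 and 989. Pdgfra, Postn and Dcn had means of 1686, 1689 and 1438 on the arrays labelled deleted and at most 80.2, 106 and 30.6 in the other groups. They passed the filter through the arrays labelled deleted. S100a4 went the other way, with a mean of 1203 there and 4874 to 6663 in the other groups. Vim was also lowest there, at 8411 against 10526 to 13769. Against delta, 7 of the 15 were higher on the arrays labelled deleted and 2 lower (limma adjusted p under 0.05). Those arrays stand apart, and each result with them is given separately.

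p53 binds DNA as a tetramer over a pair of decamers. The 5 RefSeq promoter windows below (build GRCm38.p6, read 5′ to 3′ along the gene) carry a decamer. They are shown because their genes are members that passed in a comparison among delta, WT, K165A and H1093K. Capitals mark each match to the p53 decamer, whose consensus is its own reverse complement.
Cdkn1a, chr17:29090881-29090962, plus strand: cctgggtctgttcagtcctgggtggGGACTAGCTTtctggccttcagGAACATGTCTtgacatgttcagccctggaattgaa
Mdm2, chr10:117710910-117710969, minus strand: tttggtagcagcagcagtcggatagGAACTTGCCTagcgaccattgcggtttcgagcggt
Ccng1, chr11:40755437-40755496, minus strand: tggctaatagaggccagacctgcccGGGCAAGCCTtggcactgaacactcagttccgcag
Gadd45a, chr6:67037413-67037472, minus strand: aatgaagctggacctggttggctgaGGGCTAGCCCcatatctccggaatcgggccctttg
Ddit4l, chr3:137623557-137623616, plus strand: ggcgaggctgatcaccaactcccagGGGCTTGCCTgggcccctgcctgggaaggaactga
The Cdkn1a window lies at the upstream RefSeq start, 2790 bases from the gene's other start. It is the one member promoter with a tandem pair of full matches, which stand 12 bases apart. The decamer directly after the second match misses the consensus only at its first base, so it was not marked. Which of these p53 would use was not tested. Of the 30 members with a promoter in the RefSeq table, 8 (26.7%) held a decamer within 250 bases before to 50 after a start, against 9.55% of 27025 genes. A tandem pair was found in 0.0740% of genes. The other members with a decamer were Cdkn2d, Ei24 and Sesn1. TTTGAA, the CHR element of genes that p53 represses through the retinoblastoma-like proteins, was searched on both strands and stood in 3 of the 30, against 20.2% of genes. These matches describe letters in a window and do not show binding.

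Several classical p53 targets, among them Cdkn1a, Pmaip1 and Plk2, were lower in cells with wild-type G9a than in delta. Against delta, 10 of the 37 members were lower in WT and 3 were higher (limma, Benjamini-Hochberg adjusted p under 0.05 over 13576 probe sets). That is 35.1% of members, against 13.5% of the 7761 genes, each taken by its brightest probe set as the members were. Among those genes 7.69% were lower and 5.85% higher. The 10 lower members were Cdkn1a, Ccng1, Ccnd2, Ccnd3, Gadd45a, Gadd45b, Pmaip1, Plk2, Phlda3 and Ephx1, and the 3 higher ones Sesn3, Tob1 and Ddit4l. The median log2 difference of all 37 was 0.02, against -0.00 for all tested probe sets. Of 6 tested markers of epithelial cells, 3 were also lower in WT than in delta and 0 higher, as given at the end. In cultured cells measured in bulk, fewer cells of a type and less RNA per cell cannot be told apart.

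**Figure D1:**
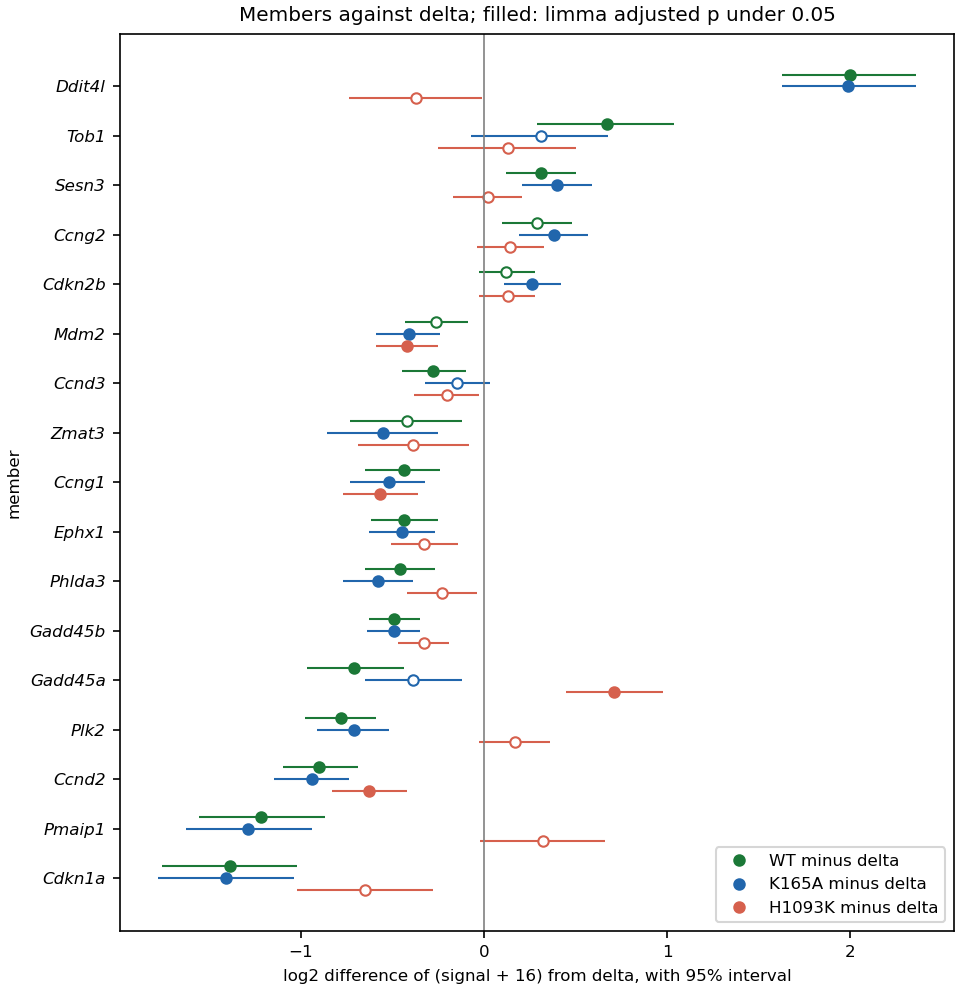
Log2 difference of (signal + 16) from delta for the 17 members that passed in at least 1 comparison among delta, WT, K165A and H1093K (points, with 95% intervals). WT and K165A lie close together for most members, while H1093K sits near delta for Plk2 (0.17) and Pmaip1 (0.32) and on the other side of delta for Gadd45a (0.71).

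Cdkn1a encodes p21, the CDK inhibitor through which p53 arrests the cycle. Its signal was 786 and 870 on the delta arrays, 342 and 271 in WT, 336 and 269 in K165A, 457 and 592 in H1093K, and 762 and 910 on the arrays labelled deleted. Both arrays of WT and K165A lay below all others, those of H1093K stood between, and delta and the arrays labelled deleted overlapped at the top. WT was 2.63-fold lower than delta (log2 difference -1.39, SE 0.17, limma adjusted p = 0.000547), which ranked it 45 from the bottom of 7761 genes. A second, dimmer probe set moved less, by -0.71 (adjusted p = 0.00173). Above WT, H1093K stood by 0.74 (adjusted p = 0.0227), but the dimmer probe set gave 0.19 (adjusted p = 0.339), and leaving out WT replicate 2 ended the call (0.142), as did leaving out H1093K replicate 2 (0.149). The gap between H1093K and delta, -0.65 with a 95% interval from -1.02 to -0.28, did not pass (adjusted p = 0.124).

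Pmaip1 encodes Noxa, a BH3-only protein that triggers cell death by binding Mcl1. It read 1172 and 1016 in delta, 460 and 461 in WT, 438 and 439 in K165A, 1431 and 1303 in H1093K, and 256 and 173 on the arrays labelled deleted. The H1093K arrays were the highest and those labelled deleted the lowest, and WT and K165A formed a level between them without overlap with delta. WT was 2.32-fold lower than delta (log2 -1.22, SE 0.15, adjusted p = 0.000732) and H1093K 2.90-fold higher than WT (adjusted p = 0.000176). Between H1093K and delta the difference was 0.32, with an interval from -0.02 to 0.66 (adjusted p = 0.459). The RefSeq table used here held no promoter for Pmaip1.

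Plk2, a polo-like kinase induced by p53 and by serum, gave 3294 and 3852 in delta, 2045 and 2078 in WT, 2205 and 2137 in K165A, 3831 and 4180 in H1093K, and 1837 and 1826 on the arrays labelled deleted. Delta and H1093K overlapped at the high level, and the other 3 groups stayed below them. The fall from delta was 1.72-fold in WT (log2 -0.78, adjusted p = 0.00033) and 1.64-fold in K165A (-0.71, adjusted p = 0.000634), and H1093K exceeded WT by 0.95 (adjusted p = 0.000106). The calls of Pmaip1 and Plk2 in these comparisons were kept in every alternative tried and without any single array.

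**Figure D2:**
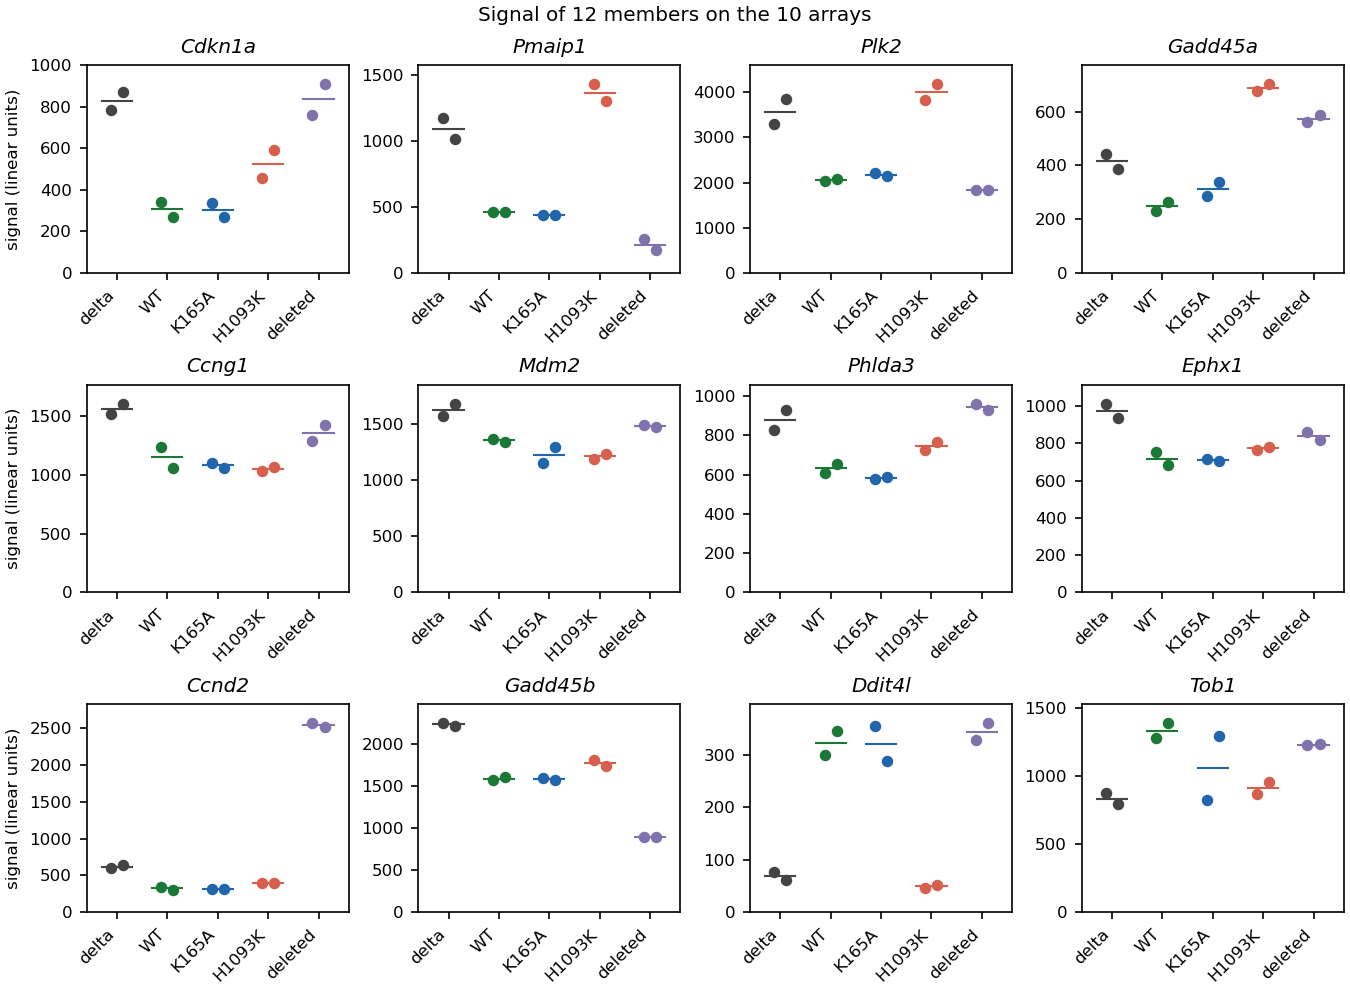
Signal (linear units, axes from 0) of 12 members on each of the 10 arrays: points are arrays, bars the mean of the 2 arrays of a group. Cdkn1a, Pmaip1 and Plk2 are low in WT and K165A, Ddit4l is high there, and Ccnd2 reaches 2571 and 2515 on the arrays labelled deleted.

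Ccng1, Mdm2, Phlda3, Zmat3 and Ephx1 were also lower than delta in at least 1 group, by smaller steps. Other p53 targets on the list did not fall: Bbc3 had means of 124 in delta and 126 in WT, and Btg2 of 2247 and 2510. Ccng1, cyclin G1, a p53 target that acts on Mdm2 through a phosphatase, read 1523 and 1608 in delta, 1241 and 1058 in WT, 1102 and 1064 in K165A, 1038 and 1067 in H1093K, and 1294 and 1429 on the arrays labelled deleted. Both delta arrays exceeded every other array. The log2 difference from delta was -0.44 in WT (adjusted p = 0.0118), -0.52 in K165A (0.00482) and -0.57 in H1093K (0.0274). Without delta replicate 2 the WT call ended (0.0741), likewise without WT replicate 2 (0.0848), and of 3 probe sets, all of the same sign, only the brightest passed in each of the 3 comparisons.

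Mdm2, the ubiquitin ligase of p53, read 1576 and 1682 in delta, 1367 and 1343 in WT, 1150 and 1292 in K165A, 1193 and 1231 in H1093K, and 1496 and 1472 on the arrays labelled deleted. Delta was again highest, followed by the arrays labelled deleted. K165A was 1.33-fold lower than delta (log2 -0.41, adjusted p = 0.00746), though not without delta replicate 2 (0.0584) or K165A replicate 1 (0.0551). WT, at -0.26, did not pass (adjusted p = 0.0539) unless replicate number was a block in the fit (0.0187). The fall in H1093K, -0.42 (adjusted p = 0.0429), was lost without any one of the delta or H1093K arrays (0.0972 to 0.264). The dimmer probe set of Mdm2 gave -0.16 in K165A (adjusted p = 0.477) and passed in none of the 3.

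Phlda3, a p53 target that competes with Akt for membrane lipids, gave 829 and 929 in delta, 609 and 656 in WT, 575 and 589 in K165A, 724 and 764 in H1093K, and 961 and 931 on the arrays labelled deleted. WT and K165A lay below H1093K, and H1093K below the other 2 groups. The log2 difference from delta was -0.46 in WT (adjusted p = 0.00681; lost without delta replicate 2, 0.0572, or WT replicate 1, 0.0605) and -0.58 in K165A (0.00193). Zmat3, an RNA-binding p53 target, read 614 and 705 in delta, 464 and 511 in WT, 408 and 481 in K165A, 494 and 505 in H1093K, and 748 and 580 on the arrays labelled deleted. All 3 groups with a G9a vector lay below delta, and WT overlapped both others, while both K165A arrays were below those of H1093K. Only K165A passed (log2 -0.55, adjusted p = 0.0279), and not without delta replicate 2 (0.159) or K165A replicate 1 (0.154). WT, at -0.42, missed it (0.0756; 0.0388 with the replicate block).

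Ephx1, the microsomal epoxide hydrolase, read 1014 and 939 in delta, 753 and 683 in WT, 716 and 705 in K165A, 767 and 783 in H1093K, and 864 and 817 on the arrays labelled deleted. Delta stood above all. The log2 differences from delta of -0.44 in WT (adjusted p = 0.00765) and -0.45 in K165A (0.00648) passed, and the WT call was lost without delta replicate 1 (0.0586) or WT replicate 2 (0.0658), the K165A call without delta replicate 1 (0.0508). H1093K, at -0.33, passed only with the replicate block (0.119 without it, 0.0307 with it).

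The Gadd45 proteins bind PCNA and p21 and activate stress kinases, and their 3 genes did not move together. Gadd45a, a direct p53 target, read 444 and 386 in delta, 232 and 264 in WT, 288 and 339 in K165A, 675 and 702 in H1093K, and 560 and 588 on the arrays labelled deleted. No group overlapped another, with H1093K at the top and WT at the bottom. WT was 1.63-fold lower than delta (log2 -0.71, SE 0.12, adjusted p = 0.00418). H1093K was 2.67-fold higher than WT (1.42, adjusted p = 6.26e-05) and 2.15-fold higher than K165A (adjusted p = 0.000312). Its rise over delta, 1.64-fold (0.71, adjusted p = 0.0298), was lost without any one of the delta or H1093K arrays (0.0601 to 0.202). K165A, at -0.39 from delta, passed only with the replicate block (0.0666 without it, 0.0318 with it).

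Gadd45b, induced by TGF-beta and NF-kB, read 2247 and 2217 in delta, 1569 and 1601 in WT, 1597 and 1566 in K165A, 1808 and 1741 in H1093K, and 898 on both arrays labelled deleted. The order was delta, H1093K, then WT with K165A, then the arrays labelled deleted. WT fell by 0.49 on the log2 scale (adjusted p = 0.000948) and K165A by 0.49 (0.000914), while H1093K, at -0.33, passed only with the replicate block (0.0517 without it, 0.0143 with it). Gadd45g read 762 and 708 in delta and 754 to 830 in WT, K165A and H1093K, and none of these differences passed.

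The D cyclins drive CDK4 and CDK6, and are the accelerators that the brakes act on. Of the 3, Ccnd2 was lower than delta in WT, K165A and H1093K alike. Ccnd2 read 593 and 640 in delta, 346 and 303 in WT, 311 and 314 in K165A, 398 and 388 in H1093K, and 2571 and 2515 on the arrays labelled deleted. WT and K165A overlapped at the bottom. The log2 difference from delta was -0.90 in WT (adjusted p = 0.000179), -0.94 in K165A (0.000134) and -0.63 in H1093K (0.0178). All 5 Ccnd2 probe sets were lower in the 3 groups, and 4 of them passed in WT, 4 in K165A and 1 in H1093K. Without any one of the delta or H1093K arrays the H1093K call was lost (0.0537 to 0.139).

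Ccnd3 read 1010 and 999 in delta, 840 and 814 in WT, 901 and 909 in K165A, 928 and 819 in H1093K, and 1269 and 1273 on the arrays labelled deleted. WT was 1.21-fold lower than delta (adjusted p = 0.0467), a call that ended without any one delta or WT array (0.134 to 0.179) without any one K165A or deleted array (0.0603 to 0.0729), and under 5 of 11 other settings (0.0611 to 0.0999). Ccnd1 was dim, at 154 and 121 in delta and 127 to 195 in WT, K165A and H1093K, with no difference past the threshold among these groups.

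**Figure D3:**
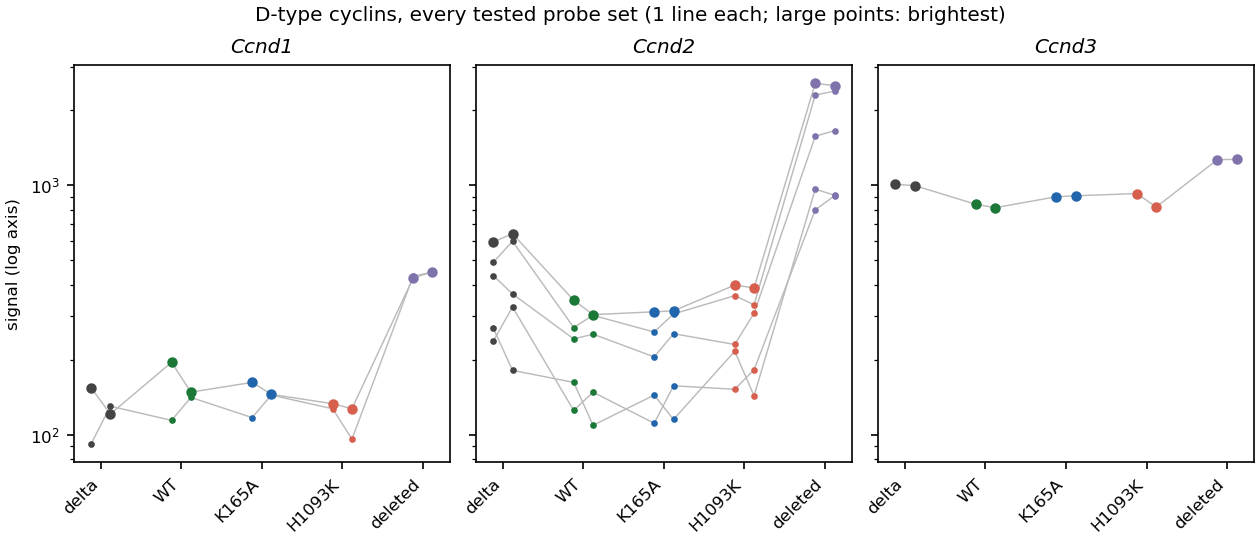
Signal (log axis) of every tested probe set of Ccnd1, Ccnd2 and Ccnd3 on the 10 arrays, 1 grey line per probe set joining arrays in plotting order, with large points for the brightest. The 5 Ccnd2 probe sets are lowest in WT and K165A and highest on the arrays labelled deleted, where the brightest reads 2571 and 2515.

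Ddit4l, Tob1 and Sesn3 were the 3 members higher in WT than in delta. Ddit4l, a relative of Ddit4 that inhibits mTOR signalling, read 76.1 and 61.7 in delta, 300 and 346 in WT, 355 and 289 in K165A, 46.7 and 52.1 in H1093K, and 329 and 361 on the arrays labelled deleted. Delta and H1093K formed a low level, and the other groups a high one with no array between. WT was 3.99-fold higher than delta (SE 0.16 on the log2 scale, adjusted p = 4.46e-05), and K165A 3.98-fold (adjusted p = 4.42e-05). H1093K was 5.17-fold lower than WT (-2.37, adjusted p = 2.85e-05). Its means of 68.9 in delta and 49.4 in H1093K lie below 104, the lowest mean signal tested, so it passed the filter through the groups where it is high, and the sizes of these folds are uncertain. A second probe set gave 1.72 in WT (adjusted p = 0.00026) and was higher in K165A too (9.83e-05). Folds are on the log2(signal + 16) scale, which understates the change of a gene as dim as this one. Its promoter holds a decamer, shown above, as does that of Cdkn1a, which moved the opposite way.

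Tob1, which slows growth and recruits a deadenylase, read 874 and 793 in delta, 1278 and 1391 in WT, 826 and 1297 in K165A, 869 and 958 in H1093K, and 1228 and 1237 on the arrays labelled deleted. The K165A arrays disagreed, one at the delta level and one at the WT level. WT was 1.59-fold higher than delta (adjusted p = 0.0294), a call lost without any one delta or WT array (0.0709 to 0.145), with no filter on dim probe sets (0.0512) and with no intensity trend in the fit (0.0552). K165A did not pass (0.31, adjusted p = 0.292), but passed without K165A replicate 1 (0.63, adjusted p = 0.009). Sesn3, a sestrin that restrains mTORC1, read 770 and 772 in delta, 953 and 971 in WT, 1082 and 971 in K165A, 760 and 798 in H1093K, and 740 and 666 on the arrays labelled deleted. WT and K165A stood above the other groups. It was higher in WT (0.31, adjusted p = 0.04) and K165A (0.40, adjusted p = 0.0137), but not past the threshold in WT without any one delta or WT array (0.129 to 0.156) or either H1093K array (0.0562 and 0.0563) or under 4 of 11 other settings (0.0541 to 0.0712), nor in K165A without either delta array or K165A replicate 1 (0.0609 to 0.0909).

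Sesn1, another sestrin and a p53 target, had means of 1086 in WT and 1101 in K165A, above 817 in delta, 869 in H1093K and 576 on the arrays labelled deleted. Its rises of 0.40 in WT (adjusted p = 0.0666) and 0.42 in K165A (0.0601) did not pass, but did with the replicate block (0.0107 and 0.00889) and without the arrays labelled deleted (0.0205 and 0.0172). All 3 Sesn1 probe sets were higher in WT than in delta, and 1 of them, not the brightest, passed. Ccng2, cyclin G2, which is tied to arrest rather than division, read 958 and 925 in delta, 1123 and 1190 in WT, 1172 and 1294 in K165A, 1105 and 983 in H1093K, and 889 and 901 on the arrays labelled deleted. K165A was higher than delta (0.38, adjusted p = 0.0173; lost without either delta array or K165A replicate 2, 0.0553 to 0.108). WT, at 0.29, missed the threshold narrowly (0.0511; 0.0231 with the block), although a second Ccng2 probe set passed in WT (0.41, adjusted p = 0.0182).

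Among the INK4 inhibitors, which bind CDK4 and CDK6, Cdkn2b (p15) read 1199 and 1266 in delta, 1342 and 1348 in WT, 1500 and 1464 in K165A, 1336 and 1357 in H1093K, and 1537 and 1664 on the arrays labelled deleted. Delta was lowest. K165A was higher by 0.26 on the log2 scale (adjusted p = 0.0401), and leaving out any one of the 10 arrays ended this call (0.0529 to 0.177). Cdkn2c (p18) had means of 2362 in delta, 2887 in WT, 2891 in K165A and 2347 in H1093K. Its differences of 0.29 from delta in WT (adjusted p = 0.0594) and in K165A (0.0605) passed with the replicate block (0.0194 and 0.0192). Cdkn2a, which encodes both an INK4 inhibitor and the p53 activator Arf, had means of 839 to 1004 in the 4 vector groups and passed in none of their comparisons. Cdkn1b (p27) and Cdkn2d (p19) passed in no comparison at all.

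No difference passed for a further set of members. Mdm4, Cdkn1b, Cdkn2d, Plk3, Ei24, Apaf1, Rb1, Rbl1, Rbl2 and Ddb2, 10 members, passed in none of the 8 comparisons. With the replicate block, Apaf1 (adjusted p = 0.0372), Rb1 (0.0398) and Rbl1 (0.0307) passed on the arrays labelled deleted against delta. Their highest group mean was 1.06 times (Rbl2) to 1.51 times (Plk3) the lowest. Plk3, a stress-responsive polo-like kinase, read 180 and 156 in delta, 188 and 174 in WT, 111 and 136 in K165A, and 105 and 135 in H1093K, so both mutants lay below delta and WT, by -0.54 in H1093K against WT (adjusted p = 0.0887). The set includes the retinoblastoma family, which holds E2F in check: Rb1 read 709 in delta and 709 in WT, with a log2 difference of 0.00 and a 95% interval from -0.33 to 0.33. Apaf1, the scaffold of the apoptosome, differed between WT and delta by 0.00, with an interval from -0.17 to 0.17. These intervals bound the difference and do not show equality.

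**Figure D4:**
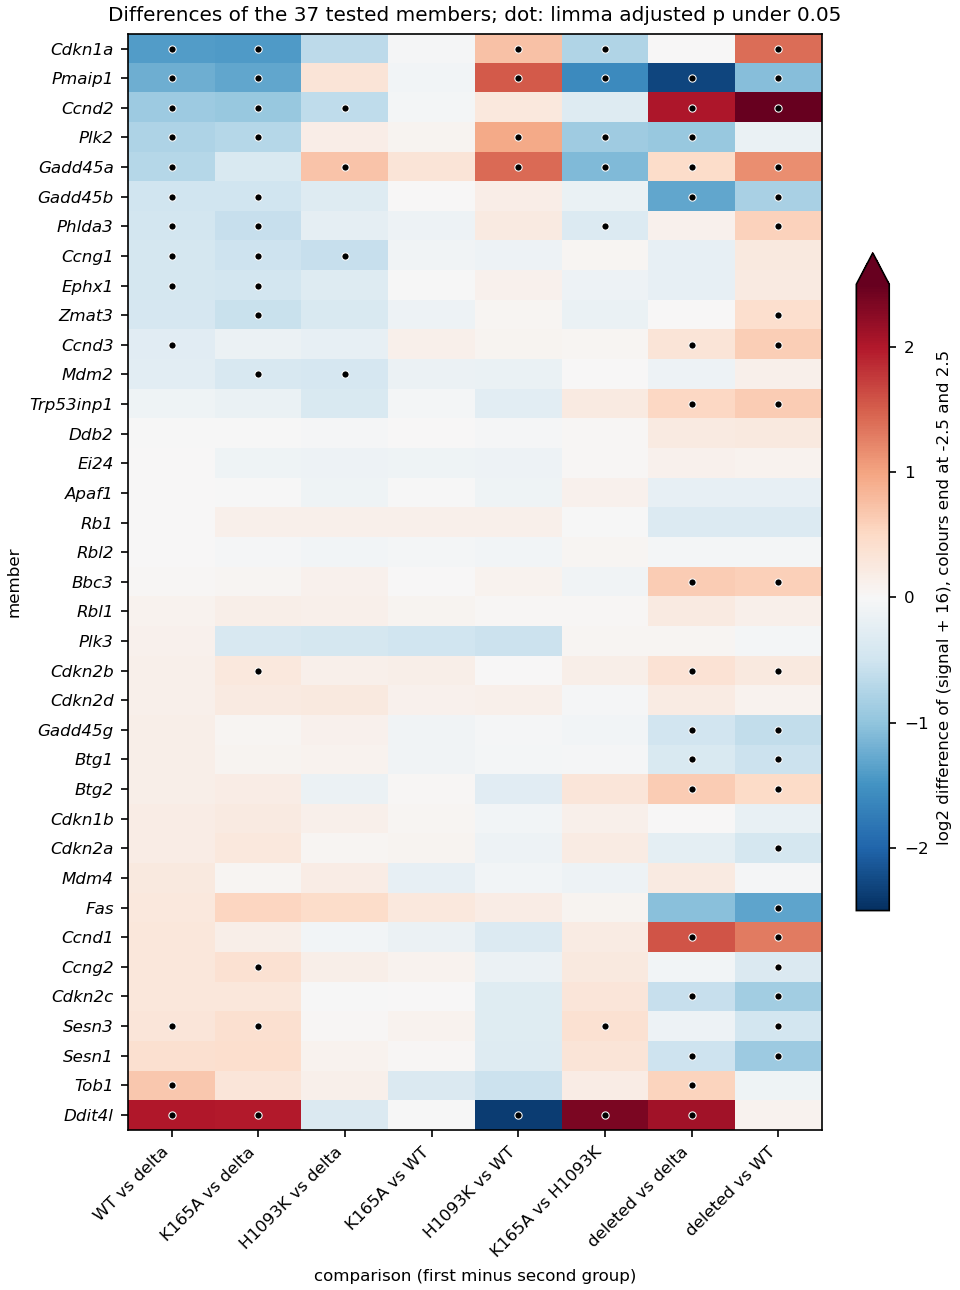
Log2 difference of (signal + 16) for the 37 tested members (vertical axis) in 8 comparisons (horizontal axis), red for higher and blue for lower in the first group, with a dot where the limma adjusted p was under 0.05. The K165A vs WT column holds no dot, and the columns with the arrays labelled deleted hold 17 and 21.

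No member was called between K165A and wild-type G9a. Against delta 10 members were lower and 4 higher in K165A, 37.8% of the 37, against 13.1% of genes (7.74% lower, 5.32% higher). Both comparisons share the delta arrays, so their likeness is not independent evidence. Compared directly, no member differed between K165A and WT, nor did any of the 7761 genes (0% either way, in limma with or without the replicate block). At an unadjusted p under 0.05 there were 2 members, Gadd45a and Plk3, and 213 genes (2.74%). The 95% intervals of K165A minus WT were -0.39 to 0.35 for Cdkn1a, -0.41 to 0.27 for Pmaip1, -0.12 to 0.27 for Plk2 and -0.37 to 0.36 for Ddit4l. They lay to one side of 0 for Gadd45a (0.05 to 0.58) and Plk3 (-0.88 to -0.12). The count of 14 in K165A fell to 9 without delta replicate 2 and that of 13 in WT to 8 without delta replicate 2 or WT replicate 2.

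Few members passed between the catalytic mutant H1093K and delta. By its brighter probe set Ehmt2 in H1093K did not pass against delta either, though in the dim one both H1093K arrays lay above delta. These data do not show whether the H1093K protein was made. Mdm2, Ccng1 and Ccnd2 were lower than delta and Gadd45a higher, 4 members or 10.8%, against 1.01% of genes (0.490% lower, 0.515% higher). Without any one of the delta or H1093K arrays, 0 members passed in limma, and without either WT or either deleted array 2 did. At an unadjusted p under 0.05 the full set of arrays gave 14 of the 37 members, and 11.9% of the 13576 probe sets. Directly against WT, H1093K was higher for Cdkn1a, Gadd45a, Pmaip1 and Plk2 and lower for Ddit4l, 13.5% of members, against 9.26% of genes (4.81% higher, 4.46% lower). With the replicate block, 10 members passed, 4 higher and 6 lower, against 15.8% of genes. The 5 added were Cdkn2c, Sesn1, Sesn3, Btg2 and Tob1, with limma adjusted p of 0.0211, 0.0425, 0.0247, 0.0272 and 0.0266.

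Mutant against mutant, 5 members were lower in K165A than in H1093K (Cdkn1a, Gadd45a, Pmaip1, Plk2 and Phlda3) and 2 higher (Ddit4l and Sesn3), 18.9% of the list, against 8.30% of genes (4.56% lower, 3.74% higher). Pmaip1 differed 3.04-fold (log2 -1.60, adjusted p = 0.000151) and Ddit4l 5.15-fold (2.36, adjusted p = 2.35e-05). With the block 11 passed, against 14.9% of genes, the added ones being Ccnd2 (0.0328), Cdkn2c (0.0218), Sesn1 (0.0357) and Btg2 (0.0194), and without H1093K replicate 2 there were 4. Cdkn1a was lost without K165A replicate 2 (0.122) or H1093K replicate 2 (0.151), Sesn3 without K165A replicate 1 (0.147) or either H1093K array (up to 0.135), and Phlda3 without any one array other than those of delta (0.0511 to 0.192). An F test over delta, WT, K165A and H1093K called 13 members, against 11.9% of the 13576 probe sets.

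**Figure D5:**
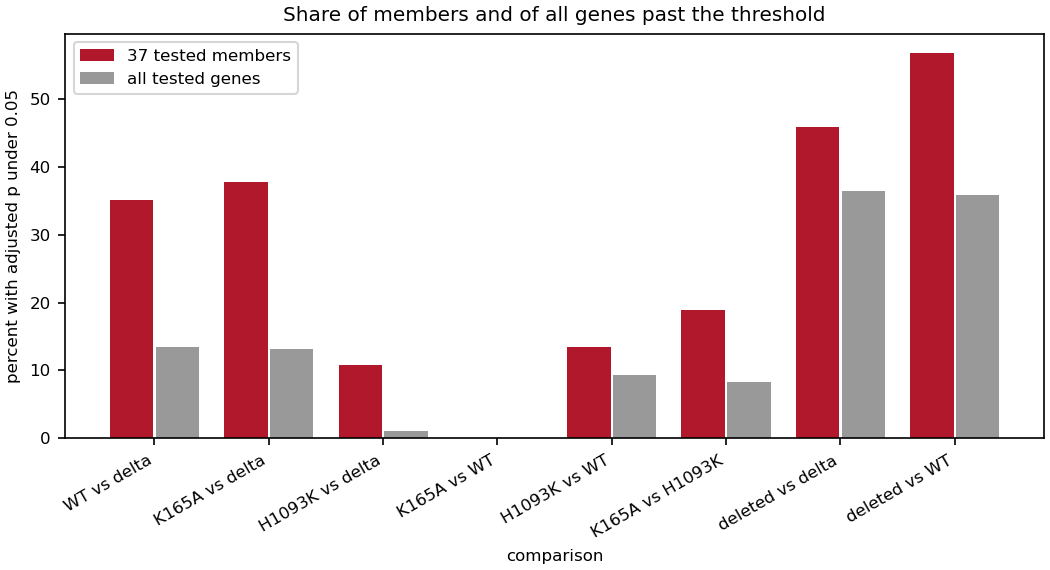
Percent of the 37 tested members (red) and of the 7761 tested genes (grey) with a limma adjusted p under 0.05 in each of the 8 comparisons. Members stand at 35.1% against 13.5% in WT vs delta, and both bars are at 0 in K165A vs WT.

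On the arrays labelled deleted the list took another shape. Against delta, 10 members were higher and 7 lower on the arrays labelled deleted, 45.9%, against 36.5% of genes (17.4% higher, 19.1% lower). Against WT, 11 were higher and 10 lower, 56.8%, against 35.8% of genes (18.0% higher, 17.7% lower). Ccnd2 was 4.05-fold above delta (log2 2.02, adjusted p = 2.09e-07) and 7.53-fold above WT. Ccnd1 reached 425 and 450, 2.97-fold above delta (adjusted p = 7.61e-05), and Ccnd3 was 1.26-fold above it (adjusted p = 0.00826), so that all 3 D cyclins were highest on these arrays. Pmaip1 was 4.89-fold below delta (adjusted p = 2.75e-06) and Gadd45b 2.46-fold (adjusted p = 3.42e-07), whereas Cdkn1a, at 0.01, did not pass (95% interval from -0.36 to 0.38, adjusted p = 0.972).

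By their brightest probe set, a further 10 members passed only in comparisons with these arrays. Btg2, an antiproliferative p53 target, read 3478 and 3477, against 1981 to 2751 on the other 8 arrays, and was 1.54-fold above delta (adjusted p = 0.000809). Its relative Btg1 went the other way, 2386 and 2326 against 3065 to 3465 elsewhere (1.31-fold below delta, adjusted p = 0.00246). Cdkn2c, at 1518 and 1648, was 1.49-fold below delta (adjusted p = 0.000738), and Gadd45g, at 524 and 529, was 1.38-fold below it (adjusted p = 0.00114). Bbc3, which encodes the BH3-only protein Puma, was dim but highest here, at 201 and 199 (1.55-fold above delta, adjusted p = 0.0127; lost without delta replicate 2, 0.0926, or either deleted array, up to 0.0636). Fas, a death receptor, read 113 and 46.1 here and 251 and 113 in delta, and fell below WT by 1.32 on the log2 scale (adjusted p = 0.0223; lost without either WT array or deleted replicate 2, 0.0763 to 0.157). Trp53inp1, a p53 cofactor, was higher than delta by 0.52 (adjusted p = 0.019; lost without any one of the delta or deleted arrays, 0.0506 to 0.102, and with its 2 probe sets averaged, 0.368). Cdkn2a and Sesn1 were lower than WT by -0.44 (adjusted p = 0.00936; lost without WT replicate 1, 0.0664, or deleted replicate 1, 0.0671) and -0.91 (0.000412).

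Other genes of the pathway, 45 tested of 60 listed, were taken from a separate list. In WT against delta 5 were lower and 4 higher, 20.0%, against 13.5% of all genes (7.69% lower, 5.85% higher). Ddit4, a stress-induced mTOR inhibitor, was 1.82-fold lower (means 565.9 and 1047, adjusted p = 0.000372), opposite to its relative Ddit4l. Klf4, a growth-arrest transcription factor, was 2.70-fold higher (1105 and 395.2, adjusted p = 0.000398), Prkab1, a subunit of the energy sensor AMPK, 1.47-fold higher (adjusted p = 0.00344) and Usp7, a deubiquitinase of Mdm2 and p53, 1.30-fold higher (adjusted p = 0.00943).

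Of 36 other G1/S control genes, 4 were higher in WT than in delta and 0 lower: Cdkn1c, a CDK inhibitor of the p21 family (1.87-fold, adjusted p = 0.0014), Pkmyt1, an inhibitory kinase of CDK1 (1.39-fold, 0.0164), Hbp1, a repressor of cycle entry (1.27-fold, 0.0245), and cyclin A2, Ccna2 (1.23-fold, 0.0278). Cdkn1c thus moved opposite to Cdkn1a, and it was 2.59-fold lower in H1093K than in WT (adjusted p = 0.00011). Of 37 proliferation genes, 3 were higher in WT and 0 lower: the kinesin Kif11 (1.36-fold, adjusted p = 0.00527), cyclin B2, Ccnb2 (1.21-fold, 0.0251) and Mki67 (1.25-fold, 0.038). Those lists were at 11.1% and 8.11%, all of it higher, against 13.5% of all genes (5.85% higher, 7.69% lower). Their median log2 differences were 0.18 and 0.13, against -0.00 for all tested probe sets.

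The summed markers of another cell class stood in the order of Cdkn1a and Phlda3, but through different keratins in different groups. The summed signal of the 10 epithelial markers was 3877 to 4191 in delta, 1179 to 1299 in WT, 1066 to 1222 in K165A, 2746 to 2937 in H1093K and 4658 to 4682 on the arrays labelled deleted. The sum rests mostly on keratins. Of the 6 markers tested, which include Cdh1 and Dsp, 3 were lower in WT than in delta. Among them were Krt7 (means 338.2 and 2609, 7.43-fold, limma adjusted p = 1.65e-06) and Krt18 (3.14-fold, adjusted p = 1.71e-05). Dsp had a mean of 358 on the arrays labelled deleted and at most 48.4 in the other groups. On the arrays labelled deleted Krt7 was at 98.0, Krt18 at 2071 and Krt8 at 1603, so the keratins did not move as one. Krt8 had means of 129 in delta and 133 in WT. The defining surface markers Epcam, Cldn7 and Ocln had group means of at most 26.2, 43.6 and 13.4, too dim to test, and Cdh1 read 106 in delta and 171 in WT. Macrophage and leukocyte markers, 4 of 11 tested, summed to 660 to 865 on all 10 arrays, with Ptprc at most 27.7, and endothelial markers, 1 of 8 tested, to 286 to 377. The part of these markers in the differences of the p53 targets was not tested.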

How the data were processed

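The authors deposited 1 signal intensity (linear scale) per probe set and array, made with GCOS 1.4, per the submitters' processing notes. Background and scaling options are not given in the sources used here. Median signals lay between 181.1 and 199.6, and the mean after trimming 2% at each end was 500.0 on every array, so no scaling was added. Replicate arrays correlated at 0.983 to 0.987. For arrays, their number limits the precision.

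Of 22690 probe sets 64 were controls. Of the others, 20380 had 1 gene, 691 had several and 1555 had none in the platform annotation, with symbols updated from RefSeq. No genome build is given for the array, and no probe positions are reported.

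In R 4.3.3, limma 3.58.1 was fitted to log2(signal + 16) of all 10 arrays in 5 groups, with an intensity trend, after dropping probe sets under the 40th percentile of mean signal. This kept 13576 probe sets (lowest mean 104) and left 5 residual degrees of freedom, with 4.69 from the prior. Threshold: Benjamini-Hochberg adjusted p of 0.05 over the 13576. The procedure was tested on simulated data. An exact test of 2 arrays against 2 cannot go below 0.333, so none was run.

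The titles mark the second array of each group. The difference between replicates correlated across groups in all 10 pairs of groups (0.23 to 0.51), so same-numbered arrays may be paired. A fit with replicate as a block was run as an alternative. Counts and p-values are from the fit without the block, which ignores such pairing, unless the block is named. Other alternatives were the pseudocount, the filter, quantile normalization, median centring, no intensity trend, fewer arrays, and the mean of a gene's probe sets.

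Each member is taken by its brightest probe set with 1 gene. Members that passed in at least 1 of the 6 comparisons among delta, WT, K165A and H1093K are given on every array, the rest by examples and ranges, and up to 4 genes of smallest p from each other list in WT against delta. Further genes outside this rule were chosen after their values were seen: Cdkn1c in H1093K and the single markers. The members and lists were chosen with earlier results of these data known. Promoters are RefSeq sequences of GRCm38.p6.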

Additional observations from a re-analysis of the deposited data

How the results depend on the processing

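Of the 81 pairs of member and comparison that passed, none changed direction under any alternative or left-out array. The replicate block raised the count of probe sets past the threshold from 1664 to 2863 in WT against delta, from 1576 to 2719 in K165A against delta, from 118 to 471 in H1093K against delta, from 1138 to 1997 in H1093K against WT, from 1046 to 1898 in K165A against H1093K and from 1610 to 3045 in the F test. It raised the members from 5 to 10 in H1093K against WT and from 7 to 11 in K165A against H1093K. Against delta the members rose from 13 to 18 in WT, from 14 to 17 in K165A and from 4 to 6 in H1093K. The shares of all genes with the block were 22.6%, 21.3% and 3.56% in these 3. Over the 8 comparisons it added 28 member calls of 296 and lost 0. Those not given above were on the arrays labelled deleted: Fas (adjusted p = 0.00586) and Ephx1 (0.0299) against delta, and Ccng1 (0.0381), Apaf1 (0.0356), Rb1 (0.0381) and Ephx1 (0.024) against WT. It changed no other call. Fitting only the arrays compared gave 822, 11 and 690 probe sets in K165A against delta, H1093K against delta and K165A against H1093K, and 9 and 0 members in the first 2 of these. H1093K against delta also fell to 60 probe sets and 2 members with no filter, to 59 and 1 with no intensity trend, and to 69 and 1 without the arrays labelled deleted. With 1 array left out, where a lone array is assumed to vary like the other groups, the probe sets ranged from 830 to 1631, 857 to 1411, 7 to 93, 574 to 1083, 575 to 995, 3168 to 4617 and 3017 to 4483 in WT against delta, K165A against delta, H1093K against delta, H1093K against WT, K165A against H1093K, deleted against delta and deleted against WT, in that order, and from 1118 to 1343 in the F test. Members ranged from 8 to 13, 9 to 14, 0 to 4, 4 to 6, 4 to 7, 13 to 17 and 16 to 21 in the same order, and from 9 to 13 in the F test. Fitting only the arrays compared also ended the calls against delta in K165A of Mdm2 (0.0594), Ccng2 (0.0694), Sesn3 (0.0646) and Zmat3 (0.0583), and that of Sesn3 in K165A against H1093K (0.0743). Cdkn2b in K165A against delta was lost under 5 settings other than left-out arrays (0.0535 to 0.149), and Phlda3 in K165A against H1093K under 4 (0.0507 to 0.109). Rbl1, which had not passed, turned from 0.13 to -0.23 on the arrays labelled deleted against WT (adjusted p = 0.0486) when its probe sets were averaged. The cause of these shifts was not tested. Signal over background limits Tnfrsf10b, Bbc3, Fas and Ddit4l.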

Other observations

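Probe sets of a member did not always agree. Of 16 members with several tested probe sets, 36 pairs of member and comparison passed by the brightest one. In 35 of these all probe sets had the same sign, and in 18 all of them passed. The exception in sign was Trp53inp1 on the arrays labelled deleted against delta, at 0.52 by the brightest and -0.13 by the other probe set. Rbl1 passed nowhere by its brightest probe set, but a second one was lower on the arrays labelled deleted than in WT (log2 -0.59, limma adjusted p = 0.00578), where the brightest gave 0.13 (0.24). A dim further probe set of Gadd45b, with group means of 83.95 to 132.0, passed in no comparison.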
